A study of Rattus norvegicus with 8 samples.

Results

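The genes examined here encode 7 families of membrane carriers that move bicarbonate (Slc4a), protons (Slc9a), chloride with potassium or sodium (Slc12a), calcium in exchange for sodium and potassium (Slc24a), sulfate, iodide and other anions (Slc26a) and zinc and related metals (Slc30a and Slc39a). Members were taken by symbol, as every probe whose RefSeq accession maps to a gene symbol that starts with one of these 7 stems followed by a digit. This gave 48 genes on 65 probes, of 12206 named genes on 15184 probes and 41012 distinct probes in all. RNA came from the hippocampus of 8 male Wistar rats, with 1 array per rat. The 4 CCH rats ate CE-2 feed with 0.1% coral calcium hydride (CCH), a coral-derived calcium powder loaded with hydrogen, and the 4 control rats ate standard CE-2 feed without it. Feeding began at 6 weeks of age and tissue was taken at 8 weeks, and no gene was modified in either group. The sample labels name no cage or litter.

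These carriers set the ionic conditions in which neurons and glia work. Bicarbonate carriers and sodium-proton exchangers hold the pH inside and outside cells, and the balance of chloride import by Slc12a2 and chloride export by Slc12a5 sets whether the transmitter GABA inhibits or excites a neuron. Zinc is packed into synaptic vesicles of hippocampal mossy fibres by Slc30a3. ZIP carriers (Slc39a) bring zinc into the cytosol, and ZnT carriers (Slc30a) take it out of the cytosol into vesicles or out of the cell. A shortage or excess of zinc is sensed in the cytosol by the transcription factor MTF1, which binds metal response elements in promoters such as that of Slc30a1.

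The promoters below were searched for the letters of such elements. They are those of Slc30a1, a known MTF1 target, and of a pair of members with non-overlapping groups. Each run is the 250 bases before the annotated gene start, written 5′ to 3′ on the gene's own strand and taken from RefSeq. Capitals mark matches to the element's core, TGCACNC or TGCGCNC, on either strand, with matches at the same bases counted once.
Slc30a1 (GRCr8 chr13:106021769-106022018, plus strand): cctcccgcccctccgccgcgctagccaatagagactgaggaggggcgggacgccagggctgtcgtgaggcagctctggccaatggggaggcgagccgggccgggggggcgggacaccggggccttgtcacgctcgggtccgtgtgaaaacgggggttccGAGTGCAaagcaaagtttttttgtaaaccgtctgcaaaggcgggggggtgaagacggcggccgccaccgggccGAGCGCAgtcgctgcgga
Slc24a2 (GRCr8 chr5:106787781-106788030, minus strand): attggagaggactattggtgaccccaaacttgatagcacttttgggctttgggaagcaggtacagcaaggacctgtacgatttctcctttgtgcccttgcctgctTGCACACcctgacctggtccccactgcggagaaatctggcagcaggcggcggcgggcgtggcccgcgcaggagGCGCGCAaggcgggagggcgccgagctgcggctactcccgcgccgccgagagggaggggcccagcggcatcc
Slc39a10 (GRCr8 chr9:62405183-62405432, plus strand): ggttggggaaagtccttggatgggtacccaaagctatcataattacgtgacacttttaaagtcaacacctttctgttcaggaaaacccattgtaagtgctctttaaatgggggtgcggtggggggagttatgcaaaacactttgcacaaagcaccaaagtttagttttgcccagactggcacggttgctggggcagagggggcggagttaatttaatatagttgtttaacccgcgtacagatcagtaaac
The first base of the matches lay 91 and 18 bases before the start in Slc30a1 and 145 and 72 bases before it in Slc24a2. The Slc39a10 window held no match. Neither did that of Slc30a3, another member with non-overlapping groups, which is not printed. For Slc39a14, which also had such probes, no promoter was found. Bases after the start were not searched, so a window without a match does not show that the gene lacks such an element. A promoter was found for 39 of the 48 members, and 14 of the 39 (35.9%) held at least 1 match, against 21.2% of all 27457 promoters. By family a match was present in 4 of 6 Slc30a and 2 of 9 Slc39a promoters. These are matches of letters and not measured binding sites.

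Values below are log2 processed signals minus the 75th percentile of the same array, so that a probe at 0 was as bright as that percentile, and a difference is CCH minus control. The 75th percentile lay between 642 and 882 intensity units on CCH arrays and between 563 and 699.8 on control arrays, and 76.3% to 79.9% of spots per array were well above background. All 4 CCH arrays shared one slide and scan and all 4 control arrays the other, so each difference between the diets cannot be told apart from one between slides or scans. Precision is limited by the number of arrays. Of the hippocampal markers, all 9 pyramidal neuron and 4 of 5 dentate granule neuron genes on the array were well above background on all 8 arrays. So were all 10 astrocyte and all 10 microglia markers, so this does not tell the hippocampus from other brain tissue. Some arrays stood apart. CCH replicate 1 held the highest or lowest value of the 8 arrays for 28 of 56 member probes tested, as for 51.3% of all tested probes. It had the highest signal for all 14 pineal gland and photoreceptor markers with a probe, a list made after values of these arrays were seen. Control replicate 3 had the second highest for 13 of these, though only 5 of the 14 were well above background on all 8 arrays. CCH replicates 2 and 4 held both lowest signals for 10 of 11 choroid plexus markers, and control replicate 2 the third lowest for 9. Oligodendrocyte markers averaged higher on every CCH array than on any control array (10 of 10 higher, centred means of 0.07 to 0.36 in CCH and -0.34 to -0.07 in control). Microglia markers averaged lower on every CCH array, by a margin near 0 (8 of 10 lower, -0.15 to -0.0012 in CCH and -0.00041 to 0.17 in control). The part of these lists in the differences below was not tested, except where a value is given. In whole tissue, fewer cells of a type and less RNA per cell cannot be told apart.

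No member passed the test between CCH and control. Of the 65 probes, 56 for 42 genes were well above background on at least 4 of 8 arrays and were tested with limma, and 0 had a Benjamini-Hochberg adjusted p under 0.05, where 55 of all 31618 tested probes (0.174%; 0.0759% higher and 0.098% lower) did. At an unadjusted p under 0.05 there were 8 member probes, 2 higher and 6 lower in CCH, a share of 14.3% against 15.4% of all tested probes (8.79% higher and 6.59% lower). The groups did not overlap for 6 member probes, 2 higher and 4 lower, against 11.3% of all tested probes (6.59% higher and 4.7% lower). Taken over either direction, both shares were near the background. By direction more member probes were lower than higher, while more of all tested probes were higher than lower. This lean was not tested. The median difference was -0.02 over the 56 probes and 0.03 over all tested probes, while the median absolute difference was 0.19 and 0.15. In all, 26 probes were higher and 30 lower, and 37 differed by less than 0.3 either way. The lowest adjusted p was 0.0761. A p above the threshold does not show that the groups were alike, so intervals are given for the members that matter most.

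**Figure D1:**
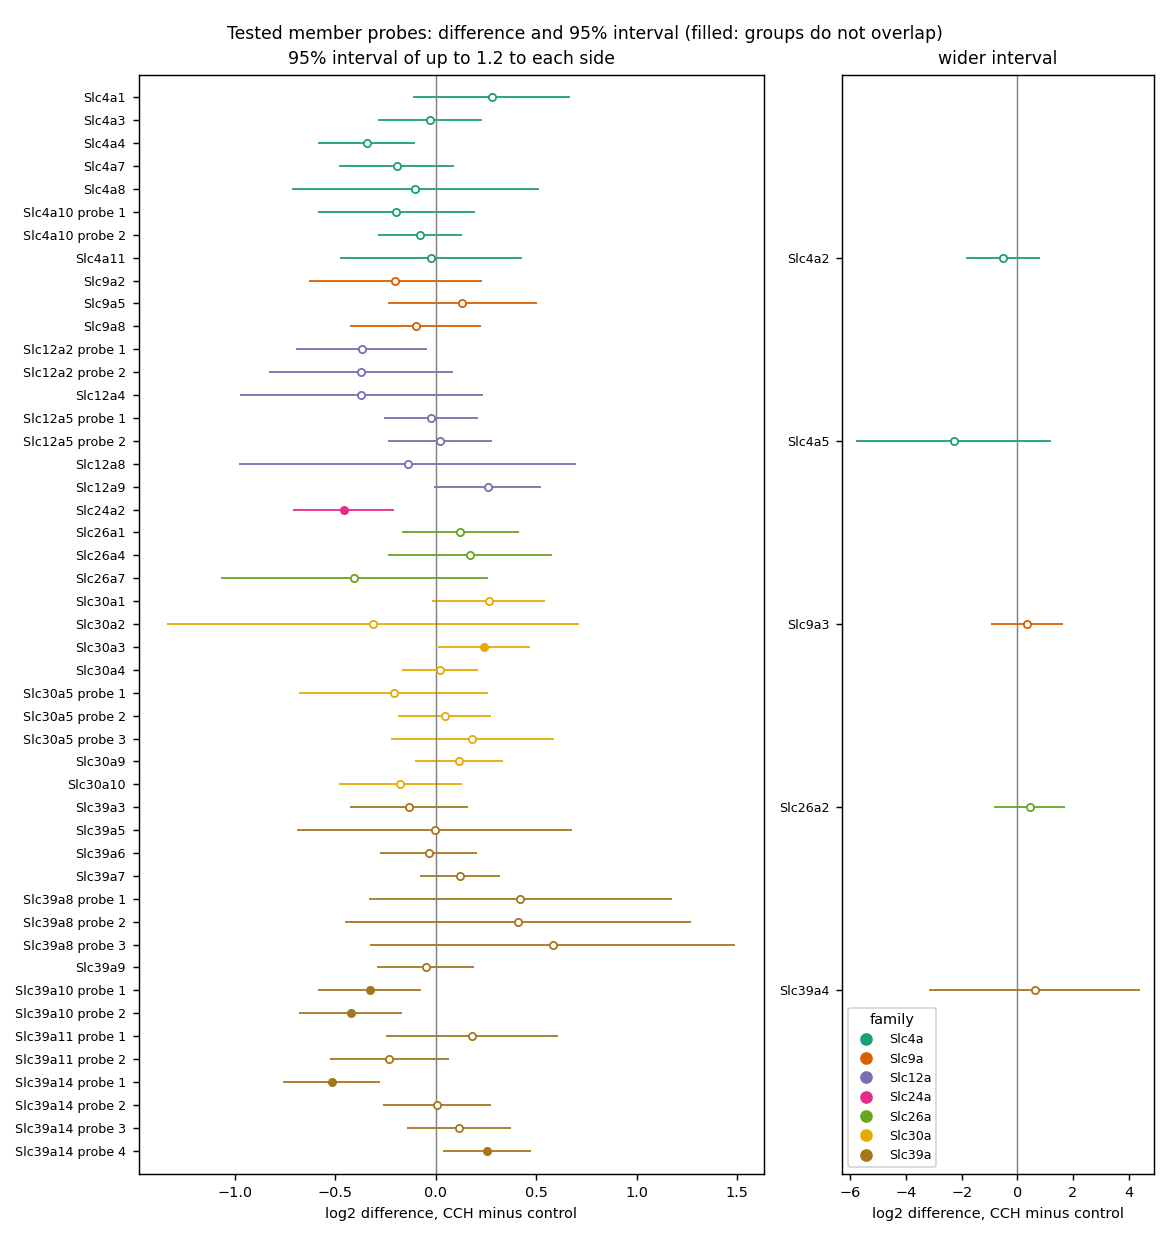
Log2 difference, CCH minus control, for 52 tested member probes (points) with its 95% interval (lines), coloured by family, with filled points where the groups did not overlap and intervals wider than 1.2 to each side in the right panel. Filled points are 1 probe of Slc24a2, 1 of Slc30a3 and 2 each of Slc39a10 and Slc39a14, and 9 of 10 Slc4a probes lie left of 0.

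The zinc importers, with 17 of the 56 tested probes, held 4 of the 6 non-overlapping probes, 1 higher and 3 lower. All 4 were probes of Slc39a10 and Slc39a14, and 11.3% of all tested probes did not overlap. Of 17 tested Slc39a probes for 10 genes, 9 were higher and 8 lower with a median difference of 0.01. In limma 1 higher and 3 lower had an unadjusted p under 0.05, as did 15.4% of all tested probes. Slc39a14, which imports zinc, iron and manganese, was read by 4 probes to the same transcript. Its brightest probe (A_44_P375185) was at -1.57, -1.34, -1.30 and -1.58 on CCH replicates 1 to 4 and at -0.86, -0.87, -1.10 and -0.90 on control replicates 1 to 4. All CCH values lay below all control values, with a difference of -0.52 ± 0.11 (SE, n = 4 per group, 95% interval -0.76 to -0.28, limma adjusted p = 0.0761). The dimmest probe (A_44_P577978) ran the other way, at -5.14, -5.14, -5.31 and -5.00 in CCH and -5.35, -5.37, -5.55 and -5.35 in control. All CCH values of that probe were the higher ones, by 0.26 ± 0.10 (SE, n = 4 per group, limma adjusted p = 0.260), and the difference was -0.11 with normexp background correction. The other probes differed by 0.01 ± 0.12 and 0.12 ± 0.11 (SE), with overlapping groups. The 4 probes of Slc39a14 thus gave no common direction, and the reason was not tested.

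Slc39a10, a plasma membrane zinc importer, had probes that ran the same way. The brighter (A_44_P251023) was at -0.96, -1.01, -1.36 and -1.14 in CCH and -0.71, -0.75, -0.95 and -0.76 in control. All CCH values were lower, with a difference of -0.33 ± 0.11 (SE, n = 4 per group, 95% interval -0.59 to -0.07, limma adjusted p = 0.218). The other (A_44_P1058055) was at -2.88, -2.73, -3.02 and -2.85 in CCH and -2.25, -2.46, -2.66 and -2.43 in control. Again the groups did not overlap, with a difference of -0.42 ± 0.11 (SE, n = 4 per group, 95% interval -0.68 to -0.17, limma adjusted p = 0.136). It was the only member with more than 1 tested probe for which every probe separated the groups in the same direction. Slc39a8, an importer of zinc and manganese, had 3 probes that were 0.42 ± 0.33, 0.41 ± 0.38 and 0.58 ± 0.40 higher (SE). On each of them CCH replicate 1 was the highest of the 8 arrays, and without it the differences were 0.09, 0.02 and 0.25. Slc39a7, which releases zinc from the endoplasmic reticulum, differed by 0.12 ± 0.09 (SE) and had its highest value, 2.05, on the same array. Both probes of Slc39a11, another ZIP gene, disagreed at 0.18 ± 0.19 and -0.23 ± 0.13 (SE). Without CCH replicate 1 the first was at -0.0046 and the second at -0.35 (limma adjusted p of 0.985 and 0.0610). The remaining tested importers, Slc39a3, Slc39a5, Slc39a6 and Slc39a9, differed by -0.13 to -0.0038. The value nearest 0 was that of Slc39a5, at -0.0038 ± 0.30 (SE, 95% interval -0.69 to 0.68). It was 0.31 without CCH replicate 1, its lowest array.

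Of 9 tested probes for the zinc exporters and vesicle loaders of the Slc30a family, 6 were higher and 3 lower, with a median difference of 0.05. Slc30a3, which loads zinc into synaptic vesicles, was at 0.59, 0.35, 0.30 and 0.55 in CCH and at 0.29, 0.28, 0.11 and 0.15 in control. The groups were separate by a narrow margin, and the difference was 0.24 ± 0.10 (SE, n = 4 per group, 95% interval 0.01 to 0.47, limma adjusted p = 0.301; 0.16 without CCH replicate 1 and control replicate 3). Slc30a1, the zinc exporter of the plasma membrane, was at -0.12, -0.60, -0.43 and -0.41 in CCH and -0.77, -0.72, -0.67 and -0.47 in control. Its groups overlapped, with a difference of 0.26 ± 0.12 (SE, n = 4 per group, limma adjusted p = 0.354; 0.17 without CCH replicate 1, which held the highest value). Slc30a10, a manganese exporter, differed by -0.18 ± 0.13 (SE). The 3 probes of Slc30a5, a carrier of the secretory pathway, were at -0.21 ± 0.21, 0.05 ± 0.10 and 0.18 ± 0.18 (SE). Slc30a4 and Slc30a9 differed by 0.02 and 0.11. Slc30a2, a vesicular carrier known from the mammary gland, was dim, being well above background on 2 of 4 CCH and 3 of 4 control arrays, and differed by -0.31 ± 0.45 (SE; 0.26 with a choroid plexus covariate).

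**Figure D2:**
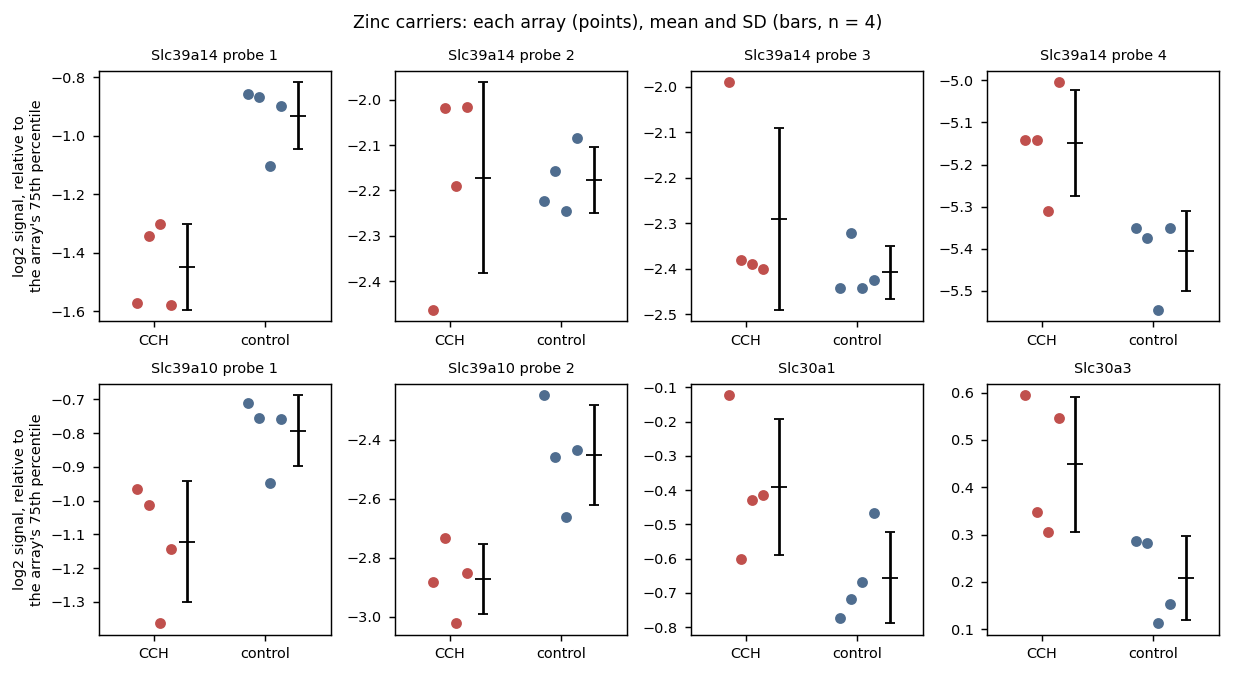
Log2 signal relative to the array's 75th percentile for 8 zinc carrier probes, with a point per array, CCH left and control right, and the mean and SD beside them (bars, n = 4). The first Slc39a14 probe and both Slc39a10 probes are lower on every CCH array than on any control array, while the fourth Slc39a14 probe and Slc30a3 are higher on every CCH array.

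Genes that bind or sense zinc differed by -0.07 to 0.04. The metallothioneins Mt1 and Mt3, which buffer zinc, differed by -0.07 ± 0.10 and -0.06 ± 0.14 (SE), the zinc sensor Mtf1 by -0.07 ± 0.08 (SE) and the zinc receptor Gpr39 by 0.04 ± 0.23 (SE). Over these 4 genes, 0 passed the adjusted test and 0 had an unadjusted p under 0.05. Mt1, a target of MTF1 like Slc30a1, was at 1.53, 1.45, 1.52 and 1.43 in CCH and at 1.52, 1.76, 1.52 and 1.42 in control, with overlapping groups.

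Bicarbonate carriers were lower in CCH for 9 of 10 tested probes, with a median difference of -0.15, and 1 of the 10 had an unadjusted p under 0.05. That was Slc4a4, the sodium bicarbonate cotransporter of astrocytes, which was at 1.07, 0.72, 0.81 and 0.87 in CCH and 1.27, 1.31, 1.05 and 1.21 in control. CCH replicate 1 just overlapped the lowest control value, and the difference was -0.34 ± 0.11 (SE, n = 4 per group, 95% interval -0.59 to -0.10, limma adjusted p = 0.182). The astrocyte markers beside it were higher for 4 and lower for 6 of 10, with a median difference of -0.03. In limma 2 were higher and 0 lower at an unadjusted p under 0.05, against 8.79% and 6.59% of all tested probes. Slc4a10, a sodium-driven bicarbonate carrier of neurons and choroid plexus, was at 0.94, 0.18, 0.29 and 0.23 in CCH and 0.73, 0.61, 0.47 and 0.61 in control. Here 3 CCH arrays lay below all controls and CCH replicate 1 above them, so the difference of -0.20 ± 0.17 (SE) became -0.37 without that array and -0.055 with the choroid plexus covariate. The second Slc4a10 probe differed by -0.08 ± 0.09 (SE). Slc4a7, an electroneutral bicarbonate importer, differed by -0.19 ± 0.12 (SE), the presynaptic Slc4a8 by -0.10 ± 0.27 (SE) and the neuronal chloride-bicarbonate exchanger Slc4a3 by -0.03 ± 0.11 (SE). The only higher probe was that of the red cell exchanger Slc4a1, at 0.28 ± 0.17 (SE), or -0.10 with normexp background correction. Slc4a11, a proton-conducting carrier of the corneal endothelium, differed by -0.02 ± 0.20 (SE).

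The largest differences among bicarbonate carriers sat in members that varied most between arrays of one group. Slc4a5, an electrogenic bicarbonate cotransporter of the choroid plexus epithelium, was at -1.10, -7.27, -1.34 and -6.94 in CCH and -0.88, -3.67, -1.16 and -1.78 in control. The low CCH values, on replicates 2 and 4, were not well above background, and all 4 control arrays were. The chloride-bicarbonate exchanger Slc4a2, which sits on the blood side of that epithelium, was at -0.28, -2.25, -0.27 and -2.10 in CCH and 0.13, -1.80, -0.38 and -0.77 in control. It was low on the same CCH arrays and on control replicate 2. The differences were -2.29 ± 1.53 (SE, n = 4 per group, limma adjusted p = 0.532) for Slc4a5, where the low CCH values give only a bound, and -0.52 ± 0.58 (SE, n = 4 per group, limma adjusted p = 0.726) for Slc4a2. The choroid plexus score, the mean of 11 marker genes outside the families after centring each gene, was at 1.34, -3.49, 1.59 and -3.87 in CCH and 2.12, -0.78, 1.84 and 1.25 in control. Both lowest scores were on CCH replicates 2 and 4 and the third lowest on control replicate 2, as for both carriers, and all 11 of its genes averaged lower in CCH, 0 of them called (two-sided exact permutation p of the score 0.229). For Slc4a5 the difference was -0.81 with normexp background correction and ran from -3.31 to -1.25 with 1 array left out. For Slc4a2 it ran from -0.89 to -0.18 with 1 array left out. With this score as a covariate the difference was 0.16 for Slc4a5 and 0.38 for Slc4a2. Among other members it was -0.01 with the covariate for Slc12a4 (-0.37 without it) and -0.01 for Slc26a7 (-0.41 without it).

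Chloride carriers of the Slc12a family were split by probe, with 5 of 10 tested probes higher and 5 lower and a median difference of 0.00. The probes read 6 genes, 3 of them by more than 1 probe, so this is not a split of genes. Slc12a2, the sodium-potassium-chloride importer also called NKCC1, was at -0.12, -0.07, 0.24 and -0.29 in CCH and 0.33, 0.09, 0.55 and 0.27 in control on its brighter probe (A_44_P134405). The groups overlapped, and the difference was -0.37 ± 0.14 (SE, n = 4 per group, 95% interval -0.69 to -0.05, limma adjusted p = 0.268), with -0.37 ± 0.20 (SE, 95% interval -0.83 to 0.09) on the second probe. With the choroid plexus covariate the probes were at -0.24 and -0.13. Its counterpart Slc12a5, the neuronal chloride exporter KCC2, was at 6.39, 6.52, 6.44 and 6.65 in CCH and 6.36, 6.62, 6.48 and 6.64 in control. The groups overlapped almost completely, with a difference of -0.02 ± 0.10 (SE, n = 4 per group, 95% interval -0.26 to 0.21), and the sign changed to 0.04 with quantile normalization. The second Slc12a5 probe gave 0.02 ± 0.11 (SE, 95% interval -0.24 to 0.28). The interval of the first Slc12a2 probe left out 0, and those of the second Slc12a2 probe and both Slc12a5 probes did not. Whether the difference of Slc12a2 differs from that of Slc12a5 was not tested. The potassium-chloride exporter Slc12a4 differed by -0.37 ± 0.26 (SE). The orphan member Slc12a9 differed by 0.26 ± 0.12 (SE, limma adjusted p = 0.336), or 0.12 without CCH replicate 1 and control replicate 3. Slc12a8 differed by -0.14 ± 0.37 (SE).

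Regulators of these carriers gave 0 calls among 11 tested genes, with 5 higher and 6 lower. The kinase Wnk1, which activates chloride import and inhibits chloride export, was at -1.07, -1.22, -1.31 and -1.38 in CCH and -0.94, -1.06, -0.94 and -0.80 in control. The groups did not overlap, with a difference of -0.31 ± 0.10 (SE, n = 4 per group, limma adjusted p = 0.202). Stk39, the kinase SPAK that phosphorylates Slc12a2 and Slc12a5 downstream of WNK kinases, differed by -0.42 ± 0.17 (SE, limma adjusted p = 0.290). Oxsr1, a closely related kinase, differed by 0.18 ± 0.16 (SE). Among 14 tested chloride channel genes, 9 were higher and 5 lower, with 0 called. In limma 3 in each direction had an unadjusted p under 0.05, against 8.79% higher and 6.59% lower of all tested probes. Clcn3, the vesicular chloride-proton exchanger, was at 1.23, 1.14, 1.19 and 1.49 in CCH and 1.69, 1.84, 1.66 and 1.84 in control. All CCH values were lower, with a difference of -0.49 ± 0.10 (SE, n = 4 per group, limma adjusted p = 0.0835). Clcn2, a plasma membrane chloride channel, was 0.40 ± 0.12 higher (SE, limma adjusted p = 0.166), also without overlap.

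**Figure D3:**
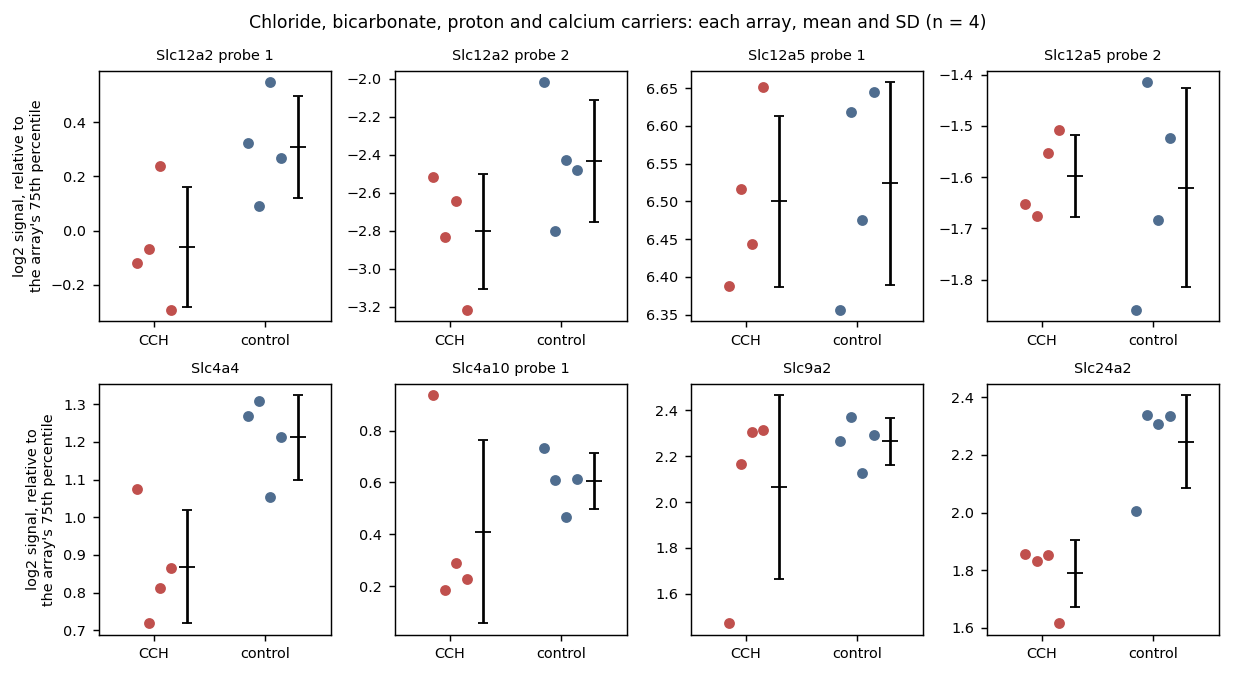
Log2 signal relative to the array's 75th percentile for 8 probes of chloride, bicarbonate, proton and calcium carriers, with a point per array, CCH left and control right, and the mean and SD beside them (bars, n = 4). Slc24a2 is lower on every CCH array than on any control array, the Slc12a5 groups overlap on both probes, and CCH replicate 1 is the high CCH point of Slc4a10.

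Sodium-proton exchangers had 2 higher and 3 lower among 5 tested probes, with 0 at an unadjusted p under 0.05. Slc9a2, a plasma membrane exchanger, was at 1.47, 2.17, 2.31 and 2.31 in CCH and 2.27, 2.37, 2.13 and 2.29 in control. CCH replicate 1 was the lowest of the 8 arrays and the groups overlapped. Slc9a2 differed by -0.20 ± 0.19 (SE; -0.0024 without CCH replicate 1), the brain exchanger Slc9a5 by 0.13 ± 0.16 (SE) and Slc9a8 by -0.10. Slc9a3, known from kidney and gut epithelia, was dim, ran from -7.44 to -4.62 among the controls alone and differed by 0.35 ± 0.57 (SE). For the same ion, the vacuolar proton pump, which acidifies vesicles, had 13 of 19 tested genes higher and 6 lower with 0 called. Its largest difference was that of Atp6v0d2, a dim subunit, at -6.77, -6.60, -5.74 and -6.79 in CCH and -4.99, -5.35, -4.91 and -5.14 in control. The groups did not overlap, with a difference of -1.38 ± 0.24 (SE, n = 4 per group, limma adjusted p = 0.0567). The lowest CCH values lay near the lowest signal well above background (-6.76 on CCH replicate 4), so they may give only a bound. Carbonic anhydrases, which interconvert carbon dioxide and bicarbonate, were higher for 7 and lower for 3 of 10 tested genes, 0 called. The 3 with an unadjusted p under 0.05 were all higher, at 0.47 ± 0.15 for Car1, 0.44 ± 0.18 for Car11 and 0.36 ± 0.13 for Car4 (SE; limma adjusted p of 0.193, 0.291 and 0.253). Of all tested probes, 8.79% were higher with a limma unadjusted p under 0.05.

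Slc24a2, the potassium-dependent sodium-calcium exchanger of neurons (NCKX2), had the lowest adjusted p after Slc39a14. It was at 1.86, 1.83, 1.85 and 1.62 in CCH and at 2.01, 2.34, 2.31 and 2.34 in control. The groups did not overlap, with CCH replicate 4 the lowest and control replicate 1 nearest to CCH. The difference was -0.46 ± 0.11 (SE, n = 4 per group, 95% interval -0.71 to -0.21, limma adjusted p = 0.107). With array weights, which gave CCH replicate 1 a weight of 0.184 and the other arrays 0.831 to 1.81, Slc24a2, the brightest Slc39a14 probe and Slc4a4 passed the test. They were at -0.51, -0.48 and -0.38 (limma adjusted p of 0.0334, 0.0388 and 0.0465), where 4.3% of all tested probes passed in that fit and 1.93% passed as lower. Their adjusted p over all alternatives ran from 0.0334 to 0.264, from 0.0388 to 0.203 and from 0.0465 to 0.373. Without CCH replicate 1 itself, 2.24% of all tested probes and 0 member probes passed.

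The Slc26a anion exchangers had 3 higher and 1 lower among 4 tested probes, with 0 at an unadjusted p under 0.05. Slc26a4, the iodide and bicarbonate exchanger pendrin, differed by 0.17 ± 0.18 (SE; 0.02 without CCH replicate 1) and the sulfate carrier Slc26a1 by 0.12 ± 0.13 (SE). Slc26a7, an anion exchanger known from kidney and stomach, differed by -0.41 ± 0.29 (SE). Slc26a2, the sulfate carrier of cartilage, was at -6.11, -6.26, -5.47 and -3.59 in CCH and -6.26, -6.01, -5.17 and -5.78 in control. Its difference of 0.45 ± 0.56 (SE) rested on CCH replicate 4 and was -0.14 without it.

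Single arrays also set the values of the zinc importer Slc39a4, known for zinc uptake in the gut, and of Slc24a1, the sodium-calcium exchanger of rod photoreceptors. Slc39a4 was at 4.30, -2.58, -2.59 and -3.05 in CCH and at -1.89, -2.88, 0.91 and -2.55 in control. It was highest on CCH replicate 1 and second highest on control replicate 3, and its difference was 0.62 ± 1.66 (SE, n = 4 per group, limma adjusted p = 0.897). Without CCH replicate 1 the difference was -1.14, and without both arrays -0.30. Slc24a1 was at -1.58, -6.95, -6.77 and -6.63 in CCH and -7.05, -7.10, -5.62 and -5.95 in control, well above background on 1 of 4 CCH and 2 of 4 control arrays, so it was not tested. The pineal gland and photoreceptor score, over 14 genes listed after these values were seen, was at 4.92, -0.85, -1.37 and -1.14 in CCH and -1.33, -0.95, 1.89 and -1.17 in control. Its high arrays were the same as those of Slc39a4. Of its genes, Tph1, which starts serotonin and melatonin synthesis, was at 4.75 on CCH replicate 1 and 0.95 on control replicate 3 and between -8.97 and -4.06 on the other arrays. Aanat, the melatonin enzyme, was at 0.75 on CCH replicate 1 and between -3.78 and -3.24 on the others. With this score as a covariate the Slc39a4 difference was -0.27. Neither Slc39a4 nor Slc24a1 is in the list.

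**Figure D4:**
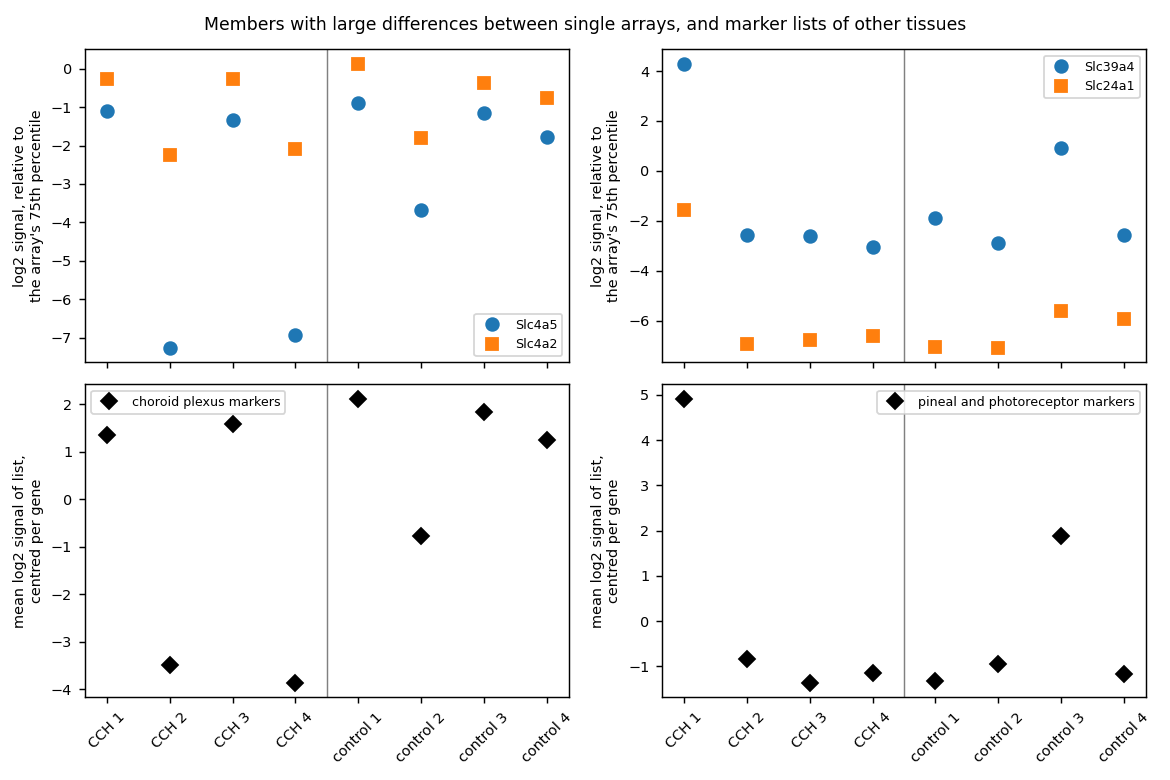
Upper panels show the log2 signal relative to the array's 75th percentile of Slc4a5 and Slc4a2 (left) and Slc39a4 and Slc24a1 (right) on each array, and lower panels the mean centred log2 signal of choroid plexus markers (left) and pineal and photoreceptor markers (right), with CCH arrays left of the line and control arrays right of it. Slc4a5 is lowest on CCH replicates 2 and 4, where the choroid plexus score is lowest, and Slc39a4 is highest on CCH replicate 1 and control replicate 3, where the pineal score is highest. Levels of different probes are not comparable.

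The range over the 8 arrays reached 2 log2 units for 6 of the 56 tested member probes, against 5.34% of all tested probes. These were probes of Slc4a2, Slc4a5, Slc9a3, Slc26a2, Slc39a4 and Slc39a8. Of the 9 probes not tested, 7 were well above background on no array. They read Slc4a1 (second probe), Slc4a9, Slc12a3, Slc26a3, Slc26a5, Slc39a2 and Slc39a5 (second probe), and include the kidney salt carrier Slc12a3 and the hair cell motor protein gene Slc26a5. The other untested probes were those of Slc24a1 and the second probe of Slc30a2.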

How the data were processed

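Cy3-labelled RNA from 8 hippocampi was hybridised to 1-colour Agilent rat arrays, per the labels. The submitters' processing notes name Agilent Feature Extraction 9.5. Per the file headers, the deposited processed signal is a spot intensity on a linear scale that the authors corrected for background but did not scale between arrays. The deposited value table holds the same intensity, rounded (relative difference of at most 0.00498), so its scale is linear and uncentred and it gave no independent alternative. Its column medians were 102, 85.35, 76.9 and 71.8 for CCH replicates 1 to 4 and 80.2, 63.25, 69.2 and 66 for control replicates 1 to 4.

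Groups came from titles and treatment labels. Free-text descriptions mention brain lesions and injections, contradict those labels and were not used. Replicate numbers equal slide positions. A slide or scan block could not be fitted because each slide held 1 diet. P-values measure the spread between these rats.

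Spots with an outlier mark (55 to 122 per array) were set to missing, and 0 spots were saturated. The log2 intensity was reduced by the 75th percentile that the array's non-control spots gave, and spots of a probe were averaged. Probes well above background on at least 4 of 8 arrays with at least 3 values per group were compared with lmFit and eBayes of limma 3.58.1 (R 4.3.3). Tests were two-sided and p-values were adjusted by Benjamini-Hochberg across the 31618 probes tested, at a threshold of 0.05. The steps were tested on simulated data. Names came from a RefSeq table of GRCr8, which named 37.0% of probes. The array design uses an older build, so only promoters have coordinates.

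Members, related lists and marker lists were chosen with earlier results of these data known. The text names the 2 tested members per family and direction with the smallest unadjusted p, a fixed set with known roles in brain and members whose probes disagree, and Slc39a4, Slc24a1, Slc26a2, Slc30a2 and Slc4a11 after their values were seen. Some genes that the rule takes are not reported here, although counts and medians include them. Other members are given by their differences. A gene with several probes is given first by its brightest. In related lists each gene is read by its brightest probe, and apart from the zinc genes those named were chosen after their values were seen. Alternatives changed background correction, scaling, filters, variance model, array weights, covariates and the arrays included. Normexp used the median signal, since the files used here hold no mean signal.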

Additional observations from a re-analysis of the deposited data

Results flagged for a closer look

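Of 68 groups of 4 arrays examined for the named members, 8 had 1 array far from the other 3, and 5 of the 8 were on CCH replicate 1. A rate of 1 in 20 would give about 3.4. Several named members, Slc39a4 and Slc4a11 below among them, were picked from these same values, so that rate is no test of the count. Over all tested probes, CCH replicate 1 held the highest or lowest value of the 8 arrays for 51.3%. On that array Slc39a4 was at 4.30 (nearest other CCH array -2.58), Slc4a10 at 0.94 (0.29), Slc26a4 at 0.96 (0.36) and Slc39a7 at 2.05 (1.86), each the high array of its group. Slc30a5 was the low one, at 0.72 with the nearest other CCH array at 1.42. Slc24a2 was low on CCH replicate 4, at 1.62 (1.83), and on control replicate 1, at 2.01 (2.31). Slc4a11 was high on control replicate 2, at -1.17 (-1.64).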

How the results depend on the processing

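No member was called under 20 of 21 alternatives, and array weights called 3 (4.30% of all tested probes). The 8 member probes at an unadjusted p under 0.05 became 14 with normexp (20.9% of all probes), 14 with array weights (23.7%) and 5 to 11 with 1 array left out. The 6 probes with non-overlapping groups became 4 with median scaling (10.1% of all probes), 5 with quantile normalization (11.1%) and 9 with normexp (14.6%). Fewer arrays make separate groups more frequent: the count was 10 without CCH replicate 1 and control replicate 3 (26.5%), a choice made after seeing the data, and 6 to 10 with 1 array left out (13.7% to 22.3%). The median difference ran from -0.06 to 0.02 with 1 array left out. With normexp it was -0.09 over member probes and -0.07 over all tested probes, so both medians were below 0. Of the 14 member probes with normexp, 2 were higher and 12 lower. Over all probes, the 55 calls became 708 without CCH replicate 1 and 0 or 1 without any other array, so that 0 members called in those 7 fits says nothing about stability. They became 1361 with array weights, 246 with normexp, 1 with the choroid plexus covariate and 0 with the replicate block.

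The cause of the following changes of sign was not tested. With normexp Slc4a1 was at -0.10, Slc9a3 at -0.18, Slc12a5 at 0.014 and Slc26a2 at -0.057, and with quantile normalization Slc12a5 was at 0.035. With array weights Slc4a3 was at 0.0022, Slc4a8 at 0.019, Slc12a5 at 0.011 and Slc39a4 at -1.13. With the choroid plexus covariate Slc4a2 was at 0.38, Slc4a5 at 0.16, Slc9a3 at -0.17, Slc9a5 at -0.017 and Slc30a2 at 0.26. Without CCH replicate 1 and control replicate 3, Slc4a3 was at 0.013, Slc4a8 at 0.020, Slc30a5 at 0.078, Slc39a4 at -0.30 and Slc39a11 at -0.049, and with the pineal covariate Slc39a4 was at -0.27. With 1 array left out, Slc4a3 ran from -0.10 to 0.034, Slc4a8 from -0.31 to 0.072, Slc4a11 from -0.16 to 0.10, Slc9a3 from -0.15 to 0.79, Slc12a5 from -0.080 to 0.017, Slc26a2 from -0.14 to 0.75, Slc39a4 from -1.14 to 1.46 and Slc39a11 from -0.0046 to 0.31.

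With the replicate number as a block, 0 of all probes were called, and 10 member probes had an unadjusted p under 0.05 (17.9% against 15.7% of all probes). Same-numbered arrays correlated in their deviations from the group means by 0.15, 0.08, -0.0052 and 0.25, and not every CCH array correlated best with its own number. These values gave no sign that the numbers pair the samples, but 4 arrays per group cannot exclude it. Slide and scan blocks were not run. Signal over background limits Slc4a5, Slc9a3 and Slc30a2, each below it on at least 1 array.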

Other observations

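Volume-regulated anion channels are assembled from LRRC8 proteins, and their genes did not share a direction. Lrrc8c was at -3.08, -2.51, -2.49 and -2.33 in CCH and -1.96, -2.41, -1.95 and -2.00 in control, a difference of -0.52 ± 0.18 (SE, n = 4 per group, limma adjusted p = 0.222). Lrrc8d was at 1.69, 1.39, 1.27 and 1.45 in CCH and 1.14, 1.15, 0.97 and 1.26 in control. Its CCH values were all the higher ones, by 0.32 ± 0.11 (SE, n = 4 per group, limma adjusted p = 0.236). The obligatory subunit Lrrc8a differed by -0.22 ± 0.11 and Lrrc8b by 0.14 ± 0.13 (SE). Among other chloride channels, the endosomal exchanger Clcn5 differed by -0.45 ± 0.13 (SE) and the epithelial channel Cftr, a dim probe, by 0.56 ± 0.19 (SE). None of these 6 genes passed the adjusted test in limma. They were picked for description after their values were seen.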
